A study of Mus musculus with 24 samples.

Results

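The 7 granzyme genes Gzmb, Gzmc, Gzmd, Gzme, Gzmf, Gzmg and Gzmn were examined in muscle satellite cells with and without a Chd4 deletion. They were taken by gene symbol from RPKM tables (reads scaled by gene length and by the mapped reads of the library) that list 46078 genes, and all 7 were found in both tables. The set was chosen by the cultured myoblast values, in which Gzmd and Gzme were lower after Cre. Values from the cultures are therefore given for these genes as a description without a test. The sorted satellite cells are separate samples whose values were not the ones that chose the 7 genes, so comparisons there are given as tests. Members and gene lists were, however, chosen with earlier results of these data known, which the p-values do not allow for.

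Granzymes are serine proteases best known from the granules of cytotoxic T cells and natural killer cells. They are made as inactive proenzymes, trimmed by the dipeptidyl peptidase cathepsin C, stored on serglycin, and enter a target cell through pores of perforin. Granzyme B cuts after aspartate and activates the death effector Bid. Granzymes C, D, E, F, G and N are rodent relatives encoded beside it, several of which are also known from placental and uterine natural killer cells. CHD4 is the chromatin-remodelling ATPase of the NuRD complex, which also holds histone deacetylases.

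RNA-seq covered 16 libraries in 4 groups of 4, all from C57BL/6 mice aged 2 to 4 months. In culture, myoblasts grown from satellite cells of uninjured Chd4fl/fl muscle received adenovirus coding for GFP (AdGFP) or for Cre (AdCRE) and were collected 72 hours later, so both arms carried the floxed alleles and a virus. In vivo, satellite cells negative for SCA1 and CD45 and positive for alpha7-integrin and CD34 were sorted 3 days after cardiotoxin injury from Chd4fl/fl mice and from Chd4dPax7ER mice. The genotype name of the latter carries Pax7ER, after the gene that marks satellite cells. How the deletion was induced, and whether control mice carried Cre, the sources used here do not say, and an effect of Cre itself cannot be told apart from that of the deletion. Replicates are numbered 1 to 4 in each group, but the labels name no separate animals or cultures for them, so p-values measure the spread between these samples only. The 8 ATAC-seq samples were not analysed here.

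Chd4 averaged 75.1 ± 7.75 RPKM (SD, n = 4) in AdGFP and 20.8 ± 3.49 in AdCRE cultures, and 126.4 ± 6.77 and 56.7 ± 8.37 in the control and Chd4dPax7ER cells, with no overlap in either setting. The cultures carried the myoblast regulators Myod1 (680.2 ± 79.6 RPKM in AdGFP) and Pax7 (33.2 ± 3.6). In the cultures 17 markers of cytotoxic lymphocytes together summed to 0.259 to 0.974 RPKM per library in AdGFP and to 1.13 to 1.52 in AdCRE. The natural killer receptor gene Ncr1 was at 0 throughout, and the pan-leukocyte gene Ptprc (CD45) averaged 0.000536 ± 0.00107 in AdGFP. The 2 highest of the 17, named after their values were seen, were Lck (0.426 ± 0.203 in AdGFP and 0.477 ± 0.116 in AdCRE) and Ccl5, a chemokine gene, which was below 0.5 RPKM in AdGFP (0.0687 ± 0.0637) and averaged 0.609 ± 0.270 in AdCRE without overlap. Neither reached the level required for a test in the cultures, and the part of such cells in the granzyme values was not tested. In the sorted cells 8 of the 17 were at 0 in all 8 libraries, near the 50.6% of all listed genes that were. The 17 together summed to 1.10 to 4.12 RPKM in controls and to 3.97 to 5.75 in Chd4dPax7ER cells. Ptprc averaged 0.323 ± 0.136 and 0.410 ± 0.140 there. Ccl5, the 1 of the 17 that was tested in the sorted cells, averaged 1.39 ± 1.22 in controls and 2.975 ± 0.526 in Chd4dPax7ER cells. It did not pass (log2 difference 1.05, SE 0.35, limma adjusted p = 0.0537).

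All 7 genes lie on the minus strand of chromosome 14 within 144.716 kb (GRCm38, chr14:56117619-56262334), in the order Gzme, Gzmd, Gzmg, Gzmn, Gzmf, Gzmc and Gzmb. Gzme occupies chr14:56117619-56120625 and Gzmd chr14:56129556-56132603, with 8.93 kb between them. Close copies can share reads, and the sources used here do not say how the authors assigned such reads. The likeness of the copies shows in their promoters, of which the 250 bases before the start were read from RefSeq (GRCm38.p6, all 7 found). The windows of the abundant pair are shown first, then that of Gzmb, which is unlike them. They run 5′ to 3′ on the gene's strand, and capitals mark the RUNX core TGTGGT on either strand and, in the pair, a 20-base run discussed after them.
Gzme, chr14:56120626-56120875: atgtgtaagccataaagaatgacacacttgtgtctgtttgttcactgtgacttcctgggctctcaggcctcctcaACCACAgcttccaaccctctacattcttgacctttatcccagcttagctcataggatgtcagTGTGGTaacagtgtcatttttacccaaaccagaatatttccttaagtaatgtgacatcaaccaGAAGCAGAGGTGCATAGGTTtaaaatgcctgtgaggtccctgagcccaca
Gzmd, chr14:56132594-56132843: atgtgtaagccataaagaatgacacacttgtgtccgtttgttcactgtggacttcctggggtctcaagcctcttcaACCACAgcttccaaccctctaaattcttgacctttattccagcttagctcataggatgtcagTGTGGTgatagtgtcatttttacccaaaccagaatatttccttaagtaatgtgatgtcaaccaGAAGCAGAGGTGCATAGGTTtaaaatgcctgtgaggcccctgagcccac
Gzmb, chr14:56262335-56262584: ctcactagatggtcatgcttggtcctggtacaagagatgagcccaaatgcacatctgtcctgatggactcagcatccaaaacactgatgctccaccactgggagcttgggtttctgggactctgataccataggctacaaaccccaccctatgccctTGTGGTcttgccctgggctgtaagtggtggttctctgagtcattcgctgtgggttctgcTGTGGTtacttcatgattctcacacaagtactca

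Gzme and Gzmd matched at 238 of 250 aligned positions, or 95.2%. The windows of Gzmg, Gzmf and Gzmc matched Gzme at 88.3%, 88.3% and 83.2% of aligned positions, whereas those of Gzmn and Gzmb could not be aligned with it over 150 positions. The run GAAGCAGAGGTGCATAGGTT was held by 5 of 32851 RefSeq promoter windows of this length, those of Gzmc, Gzmd, Gzme, Gzmf and Gzmg. The RUNX core occurred 2 times in each of 6 of the 7 windows and was absent from the Gzmn window. It was held by 4614 of the 32851 windows. The windows of Gzme, Gzmd, Gzmg, Gzmf and Gzmc are close copies, so their RUNX cores do not count as independent occurrences.

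Just before the shared run, the same 5 genes have 8 aligned bases that are identical in Gzmg, Gzmf and Gzmc. Gzme and Gzmd each differ from these, but at different bases, so no base among the 8 sets the pair apart. A base between the 8 and the run does, being c in Gzme and Gzmd and t in the low copies. The part of these bases in the levels was not tested. The stretches of 60 bases around them are shown with these 8 bases in capitals.
Gzme, chr14:56120650-56120709: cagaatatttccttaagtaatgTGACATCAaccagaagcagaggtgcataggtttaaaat
Gzmd, chr14:56132617-56132676: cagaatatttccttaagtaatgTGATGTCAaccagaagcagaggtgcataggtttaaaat
Gzmg, chr14:56159619-56159678: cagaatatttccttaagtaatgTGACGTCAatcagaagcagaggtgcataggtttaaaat
Gzmf, chr14:56211452-56211511: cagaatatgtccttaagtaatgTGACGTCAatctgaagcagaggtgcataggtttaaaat
Gzmc, chr14:56234677-56234736: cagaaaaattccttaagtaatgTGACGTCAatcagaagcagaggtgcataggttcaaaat

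Gzmg, Gzmf and Gzmc had the palindrome TGACGTCA, the cAMP response element, which 1.55% of all windows hold. Gzme and Gzmd each departed from it, with TGACATCA and TGATGTCA. The other 3 motifs were searched on both strands, and hits of different motifs could overlap. The AP-1 motif TGANTCA (6.75% of all windows) was found in the Gzmb window alone, the STAT motif TTCNNNGAA (7.02%) in none of the 7, and the E-box CANNTG (66.2%) in 5. The motifs were chosen after the windows had been read, and a match of letters is no evidence of binding. Windows that are close copies do not give independent matches. The starts used for Gzmd, Gzmn and Gzmc lie inside the widest annotated gene.

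In the cultures the cluster was 2 expressed genes among 5 near silent ones. Values there moved in whole steps of 1 read, so the reads behind each value could be recovered. Over 8 libraries Gzme had 6505 reads, or 78.7% of the reads of all 7 genes. Gzmd had 1672 reads (20.2%), and the other 5 genes shared 87 (1.05%). These 2 genes were also those that reached 0.5 RPKM in at least 4 of 8 libraries, the level required for a fit.

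Gzme encodes granzyme E, a protease first described in mouse cytotoxic T cell lines. It stood at 46.2, 41.7, 54.6 and 36.0 RPKM in AdGFP replicates 1 to 4, and at 15.3, 19.0, 24.2 and 14.7 in AdCRE replicates 1 to 4. The lowest AdGFP value lay above the highest AdCRE value. Means were 44.6 ± 7.86 and 18.3 ± 4.34 RPKM (SD, n = 4), so AdCRE cells kept 41.0% of the control level, a difference of -1.27 (SE 0.18) in log2(RPKM + 0.5). In bulk RNA, fewer expressing cells and less RNA per cell cannot be told apart. The reads were 1103, 911, 1285 and 1290 against 419, 449, 634 and 414. In AdGFP cells 90.5% of the 13567 genes tested had a lower mean than Gzme, and in AdCRE cells 74.7% did.

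Gzmd, encoding granzyme D, was the lower of the pair and the further reduced. It stood at 10.6, 10.3, 18.3 and 12.0 RPKM in AdGFP and at 1.61, 2.52, 3.61 and 2.28 in AdCRE replicates 1 to 4. Again the groups did not overlap, and replicate 3 was highest in both arms for Gzmd and for Gzme. Means were 12.8 ± 3.73 and 2.51 ± 0.832, or 19.6% of control, a log2 difference of -2.15 (SE 0.24). The AdCRE values rest on 46, 62, 99 and 67 reads, against 264, 235, 449 and 450 in AdGFP. No other gene of the 13567 tested had a more negative log2 difference than Gzmd, and 3 had a more negative one than Gzme. Of all tested genes 6.21% were lower in AdCRE without overlap, and 0.140% passed the limma test as lower. The rank and the background are given for scale only, since this contrast chose the genes, and neither is support for the change.

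**Figure D1:**
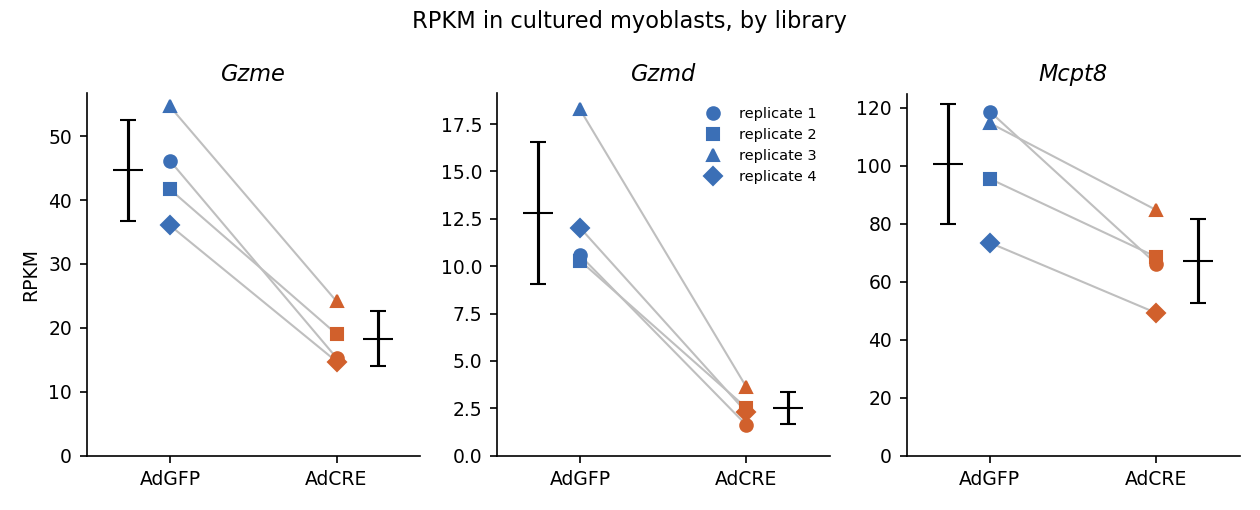
RPKM of Gzme, Gzmd and the neighbouring gene Mcpt8 in 8 culture libraries (y axis, linear from 0), with a grey line joining AdGFP and AdCRE libraries of the same replicate number and black bars for the mean and SD of 4. Each of the 12 lines falls; Gzmd drops to 15.2 to 24.4% of its numbered control and Gzme to 33.2 to 45.7%.

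The replicate numbers tied the cultures together (see the plot by library), so the same comparison was made within each number. AdCRE held 15.2, 24.4, 19.8 and 19.0% of the Gzmd level of the AdGFP library with the same number. For Gzme it held 33.2, 45.7, 44.2 and 40.9%. The ratio of Gzme to Gzmd in RPKM was 4.36, 4.05, 2.99 and 2.99 in AdGFP and 9.51, 7.56, 6.69 and 6.45 in AdCRE. The pair therefore differed in extent in each of the 4 numbered pairs, with Gzmd the more reduced.

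In the order of AdGFP levels, Gzme lay above Gzmd and Gzmd above Gzmc without overlap of their libraries, while Gzmc stayed above Gzmb, Gzmn, Gzmf and Gzmg, which overlapped each other. These 5 lower genes rest on few reads. Gzmc, encoding granzyme C, had 5, 8, 15 and 10 reads in AdGFP and 4, 7, 9 and 3 in AdCRE, for means of 0.369 ± 0.186 and 0.221 ± 0.113 RPKM, and its groups overlapped. Exact 95% Poisson intervals, which cover counting error only, ran from 8.4 to 24.7 reads for its highest library and from 0.619 to 8.77 for its lowest. Within replicate numbers 1 to 4, AdCRE held 69.9, 81.1, 53.8 and 38.2% of the AdGFP level of Gzmc. Like Gzmd and Gzme it was highest in replicate 3 of each arm. Gzmb, encoding granzyme B, had 3, 0, 0 and 3 reads in AdGFP and 9, 1, 1 and 1 in AdCRE, so 1 library held most of the reads of its arm. Gzmn had 0, 2, 0 and 1 against 2, 0, 0 and 1. Gzmg had 1 read in AdGFP replicate 1. Gzmf was above 0 in AdGFP replicate 3 only, at 0.0866 RPKM, counted here as 1 read although a single value does not fix the step and it could be 2. A library at 0 reads has an upper Poisson limit of 3.69 reads, and no test was made for these genes.

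**Figure D2:**
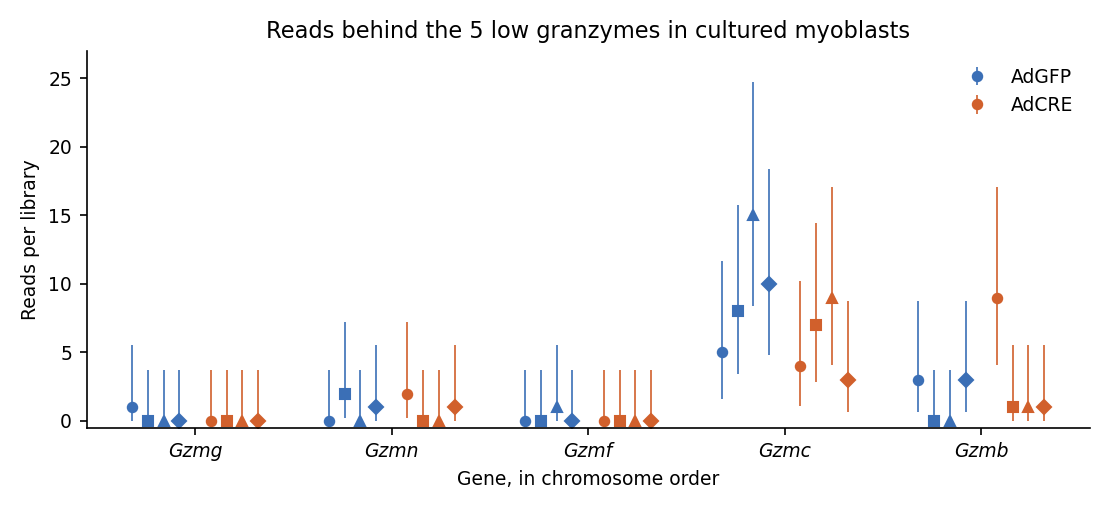
Reads per library (y axis) for Gzmg, Gzmn, Gzmf, Gzmc and Gzmb in AdGFP (blue) and AdCRE (orange) cultures; each marker is 1 library (circle, square, triangle and diamond for replicates 1 to 4) and bars are exact 95% Poisson intervals. Gzmc has 3 to 15 reads in every library with overlapping groups, and AdCRE replicate 1 alone has 9 Gzmb reads.

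The granzymes share their locus with mast cell protease genes, which occupy the side next to Gzme. Together the protease genes span 320.884 kb, from Cma1 to Gzmb. Mcpt8, whose start lies 35.1 kb from that of Gzme and which encodes a protease known as a basophil marker, was the highest of the locus. It stood at 118.7, 95.5, 114.7 and 73.4 RPKM in AdGFP and at 66.1, 68.5, 84.7 and 49.2 in AdCRE. The groups overlapped, while each AdCRE library was below the AdGFP library of its number. Means were 100.6 ± 20.7 and 67.1 ± 14.5, or 66.7% of control (log2 difference -0.58, SE 0.20). This missed the limma threshold (adjusted p = 0.224) and passed it with the replicate number as a block (limma adjusted p = 0.00123), a fit in which 36.2% of all tested genes were called, against 0.656% without the block.

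Between the abundant genes, low ones were interspersed. Ctsg (cathepsin G), which lies between Mcpt8 and Gzme, averaged 0.0525 ± 0.0172 RPKM in AdGFP and 0.0533 ± 0.0228 in AdCRE. Mcpt4, Mcpt2, Cma1 and Cma2 stayed below 0.5 RPKM in every culture library, and Mcpt9 was at 0. Mcpt1 differed mainly between replicate numbers, with 3.49, 0.863, 0.267 and 0.426 RPKM in AdGFP and 6.73, 2.02, 0.513 and 0.511 in AdCRE. It missed the threshold (limma adjusted p = 0.779) except with the block (limma adjusted p = 0.0198, log2 difference 0.57). Without the block its difference ranged from -0.032, without AdCRE replicate 1, to 1.07 with 1 library left out. Beyond the proteases, Sdr39u1 and Cenpj had adjusted p = 0.849 and 0.991 by limma in the cultures. Khnyn had 0.760, and 0.0427 with the block at a log2 difference of -0.16. Cbln3, Atp12a and Rnf17 were below 0.1 RPKM in all 8 culture libraries. Of the 8 mast cell and basophil markers outside the locus, the transcription factor gene Gata2 carried nearly all of the summed level. That sum was 14.7 to 22.8 RPKM in AdGFP and 17.7 to 25.5 in AdCRE. Cpa3 and Kit were at 0 in all 8 culture libraries.

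**Figure D3:**
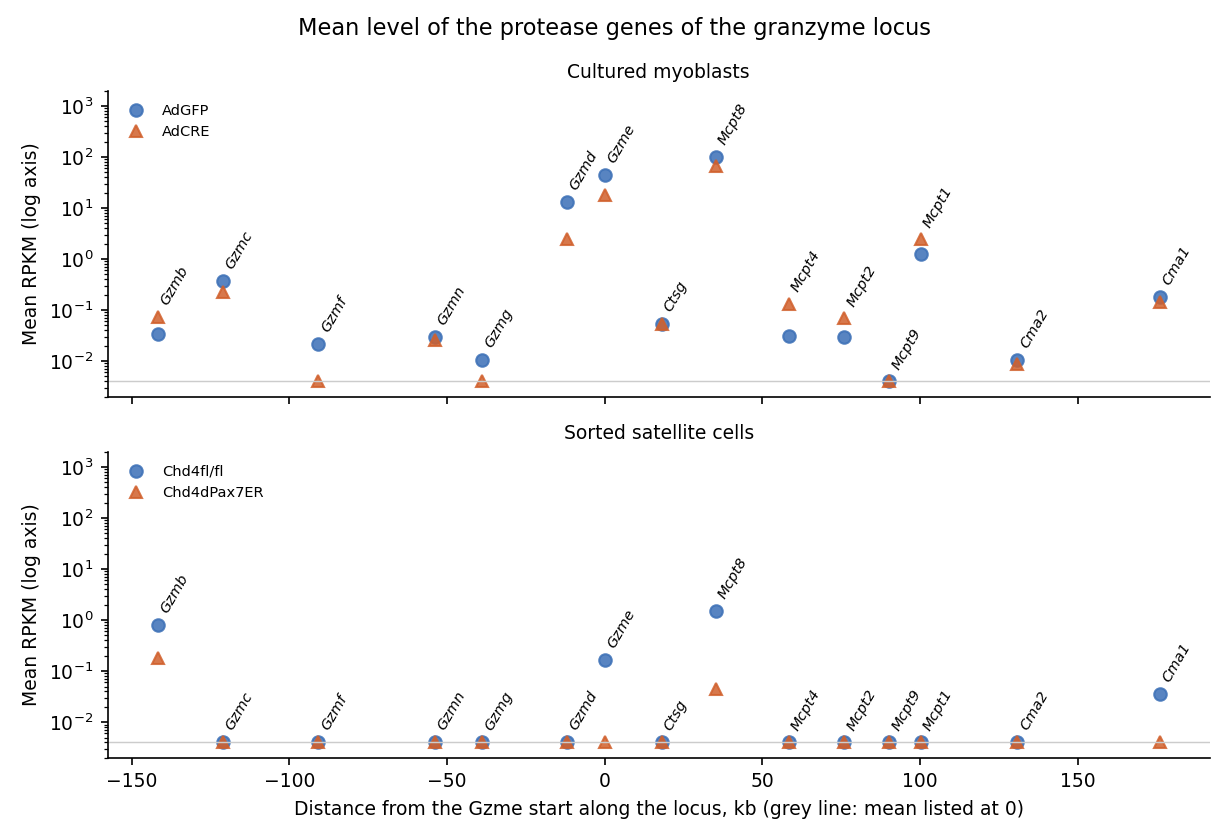
Mean RPKM (log axis) of the granzyme and mast cell protease genes against the distance of their start from that of Gzme in kb, in cultures (top) and sorted cells (bottom); circles are controls, triangles Chd4-deleted cells, and means listed at 0 sit on the grey line. Gzmd, Gzme and Mcpt8 stand out in the cultures, whereas Gzmb, Gzme and Mcpt8 are the highest in sorted control cells.

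The sorted cells were normalized in a table of their own, so levels are not compared with the cultures. Gzmd, Gzmc, Gzmf, Gzmg and Gzmn were listed at 0 in all 8 libraries, as were 50.6% of all genes in the table. Gzme was listed at 0, 0.340, 0 and 0.320 RPKM in control replicates 1 to 4 and at 0 in all 4 Chd4dPax7ER libraries. Gzmb was the highest of the 7 here, with 0.220, 0.560, 1.88 and 0.620 RPKM in controls and 0.420, 0.310, 0 and 0 in Chd4dPax7ER cells. Its groups overlapped, and control replicate 3 stood above the others.

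None of the 7 reached 0.5 RPKM in 4 libraries in vivo, so none was tested in the main limma fit, in which 26.6% of 13344 genes were called. Gzmb reached it in 3. Without that filter, Gzmb differed by -0.86 (SE 0.38, limma adjusted p = 0.193) and Gzme by -0.37 (SE 0.19, adjusted p = 0.275) in log2(RPKM + 0.5), and neither passed, where 12.8% of 22767 genes did. Unadjusted p-values were 0.0508 and 0.0889. In the sorted controls the libraries of Gzmb (0.820 ± 0.728) and Gzme (0.165 ± 0.191) overlapped.

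Mcpt8 was the 1 protease gene of the locus that passed the filter in the sorted cells, and it fell. It stood at 1.85, 1.11, 0.980 and 2.23 RPKM in controls, and in Chd4dPax7ER cells at 0.180 in replicate 1 and 0 in the other libraries. The groups did not overlap, as for the 14.3% of tested genes that were lower in every Chd4dPax7ER library. Means were 1.54 ± 0.597 and 0.0450 ± 0.0900, and Mcpt8 fell by 1.87 in log2(RPKM + 0.5) (SE 0.26, limma adjusted p = 0.00123). It passed the filter through its 4 control libraries alone, and in the fit without the filter, over 22767 genes, the limma adjusted p was 0.00248. With any 1 library left out the adjusted p lay between 0.00245 and 0.00524, and with a pseudocount of 0.1 the difference was -3.59. The other mast cell protease genes, Ctsg and Cma2 were listed at 0 in all 8 sorted libraries, and Cma1 was above 0 in 1. The marker Cpa3 was at 0 in the sorted cells as well, while Gata2 rose from 2.93 ± 0.707 to 6.74 ± 1.5 (log2 difference 1.08, SE 0.21, limma adjusted p = 0.00588). Sdr39u1, Khnyn and Cenpj beside the locus did not pass (limma adjusted p = 0.0574, 0.634 and 0.108).

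**Figure D4:**
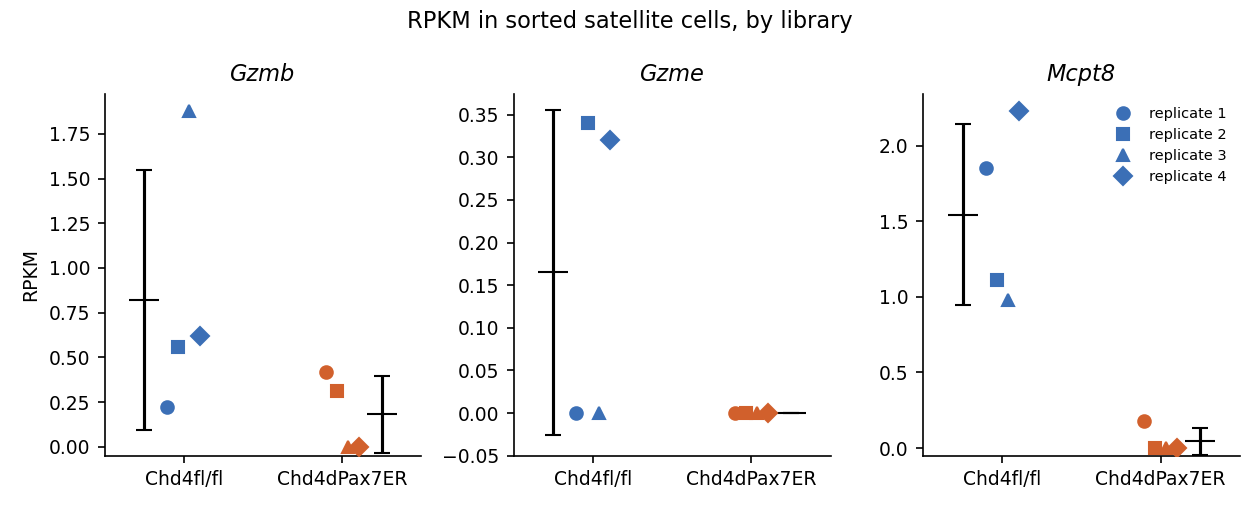
RPKM (y axis, linear) of Gzmb, Gzme and Mcpt8 in 4 Chd4fl/fl and 4 Chd4dPax7ER libraries of sorted satellite cells; symbols mark the replicate and black bars the mean and SD. Gzmb overlaps between groups, Gzme is above 0 in 2 control libraries only, and the 4 control values of Mcpt8 (0.980 to 2.23) lie above all Chd4dPax7ER values (0 to 0.180).

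Granzymes encoded elsewhere were low. Gzma was at 0 in all 16 libraries and Gzmk at or below 0.11 RPKM. Gzmm (chromosome 10), encoding the natural killer cell protease granzyme M, averaged 1.24 ± 0.130 in AdGFP and 1.249 ± 0.453 in AdCRE (log2 difference -0.03, SE 0.19, limma adjusted p = 0.968), and 1.81 ± 1.06 and 1.23 ± 0.669 in vivo (-0.39, SE 0.44, adjusted p = 0.550).

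The machinery that granzymes use in lymphocytes was present in part. Perforin (Prf1) averaged 0.0422 ± 0.0183 RPKM in AdGFP and 0.0762 ± 0.0425 in AdCRE, and in vivo it was listed at 0 except for 0.830 and 1.16 RPKM in Chd4dPax7ER replicates 3 and 4. Serglycin (Srgn) averaged 0.15 ± 0.127 and cathepsin C (Ctsc) 0.343 ± 0.145 in AdGFP cultures. In vivo Srgn averaged 2.39 ± 0.923 RPKM in controls and 3.245 ± 1.23 in Chd4dPax7ER cells (limma adjusted p = 0.399). Ctsc averaged 2.08 ± 0.773 and 1.52 ± 0.737 there (limma adjusted p = 0.428). Of 13 granule genes, 9 were tested in the cultures and 0 passed by limma (3 at an unadjusted p under 0.05). With the block 6 rose, where 17.5% of all tested genes rose and 18.7% fell. The largest differences were in Stxbp2, a syntaxin-binding protein needed for granule release, which rose from 5.56 ± 1.80 to 10.1 ± 1.94 RPKM (limma adjusted p = 0.127, with the block 0.000369), in the cathepsin gene Ctsh (log2 difference 0.50, with the block 0.00274), in Igf2r, encoding the mannose 6-phosphate receptor that sorts lysosomal enzymes (0.43, with the block 0.000689), and in the lysosomal membrane gene Lamp1 (0.28, with the block 0.00449). Lamp2 and Ctsl also passed with the block. In vivo 4 of 10 tested rose and 0 fell, where 14.7% of all tested genes rose and 11.9% fell. Stxbp2 rose from 2.00 ± 0.642 to 6.26 ± 0.526 (log2 difference 1.47, SE 0.18, limma adjusted p = 0.000776), beside Lamp1 (0.68), Igf2r (0.68) and the cathepsin gene Ctsl (0.60). Igf2r lost its call in 3 of 8 omissions of 1 library. The median log2 difference of the tested granule genes was 0.26 in culture and 0.38 in vivo, against -0.01 and -0.02 for all tested genes.

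Of 12 serpin genes related to granzyme inhibitors, 6 were tested in culture and 0 passed by limma (1 at an unadjusted p under 0.05). With the block Serpinb9, the inhibitor of granzyme B, fell from 1.82 ± 0.697 to 0.980 ± 0.349 RPKM (log2 difference -0.63, limma adjusted p = 0.312, with the block 0.00314), while Serpinb9g and Serpinb1a rose. Serpinb9g was set by replicate 1 in both arms, with 3.88 against at most 0.215 RPKM in AdGFP and 19.3 against at most 1.54 in AdCRE. The blocked fit called 17.5% of all tested genes higher and 18.7% lower. In vivo 2 of 5 fell and 0 rose, against 11.9% and 14.7% of all tested genes. Serpina3n fell from 2.53 ± 0.706 to 0.988 ± 0.443 (-1.05, SE 0.26, limma adjusted p = 0.0183) and Serpinb9 from 1.71 ± 0.745 to 0.623 ± 0.125 (-0.92, SE 0.27, adjusted p = 0.0327). The Serpinb9 call was lost with 7 of 8 libraries left out in turn (up to 0.0858), and Serpina3n with 2 of 8 (up to 0.0508). Median log2 differences were 0.06 and -0.47.

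Of 13 substrates and death effectors, all were tested in culture and 0 passed by limma (1 at an unadjusted p under 0.05). With the block Gsdmd, a pore-forming gasdermin, rose from 2.57 ± 0.363 to 4.81 ± 0.990 (log2 difference 0.78, limma adjusted p = 0.0886, with the block 0.000535). With the block 4 fell, Lmnb1 (-0.66), Gsdme (-0.45) and Parp1 (-0.41) among them. These 5 of 13 lie near the 36.2% of all tested genes called with the block. In vivo 2 of 12 rose, the proapoptotic granzyme B substrate Bid (1.24 ± 0.307 to 3.90 ± 0.913 RPKM, 1.33, SE 0.20, limma adjusted p = 0.00184) and Gsdmd (0.56, adjusted p = 0.0409). Of the 12, 3 fell, the lamin gene Lmnb1 (-0.71) and the nuclease gene Dffb (-0.69) among them. The shares over all tested genes were 14.7% higher and 11.9% lower. Gsdmd lost its call in 6 of 8 omissions of 1 library and Dffb in 5. Median log2 differences were -0.05 and -0.26.

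Regulators that act on granzyme genes in lymphocytes included 17 genes. The T-box gene Tbx21 averaged 0.00259 ± 0.00518 RPKM in AdGFP and Runx3 0.0361 ± 0.0483, whereas Runx1 (24.8 ± 3.75) and Runx2 (13.3 ± 1.48) of the same RUNX family were present. Of 12 tested in culture 0 passed by limma (1 at an unadjusted p under 0.05). With the block Stat3 (0.32), Bcl6 (0.24) and Eomes (0.53) rose and Runx2 fell (-0.19, limma adjusted p = 0.463, with the block 0.0106), 4 calls among 12 where 36.2% of all tested genes were called. In vivo Id3 (0.78, SE 0.11, limma adjusted p = 0.00131) and the repressor gene Bcl6 (0.68, adjusted p = 0.00220) rose, and Runx2 fell from 18.1 ± 1.26 to 11.0 ± 2.1 (-0.72, SE 0.13, adjusted p = 0.00410), 3 calls among 13 tested, near the 26.6% called among all tested genes. Median log2 differences were 0.04 and 0.18.

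Among 15 genes of the cytokine pathways that induce granzymes, Il18rap, the accessory chain of the interleukin-18 receptor, was lower in both settings. In AdGFP it stood at 8.34, 7.09, 9.01 and 8.67 RPKM and in AdCRE at 3.78, 3.81, 5.07 and 5.36. The groups did not overlap, as for the 6.21% of tested genes that were lower in every AdCRE library. Il18rap fell by 0.82 on the log2 scale (SE 0.13, limma adjusted p = 0.0430, with the block 0.000506). It was the 1 call among 5 tested, where 0.656% of all tested genes were called, and 36.2% with the block. Without the block, that call was lost when any 1 library was left out (limma adjusted p 0.0649 to 0.161). No omission was fitted with the block. In vivo it fell by 1.46 (SE 0.28, limma adjusted p = 0.00587), from 3.23, 3.54, 5.16 and 2.67 RPKM to 2.04, 0.680, 0.76 and 0.75. The cytokine gene Il18 fell in vivo by 1.52 (SE 0.50, adjusted p = 0.04999) and lost its call in 7 of 8 omissions, making 2 of 6 tested, where 26.6% of all tested genes were called. Median log2 differences were -0.14 and 0.17.

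**Figure D5:**
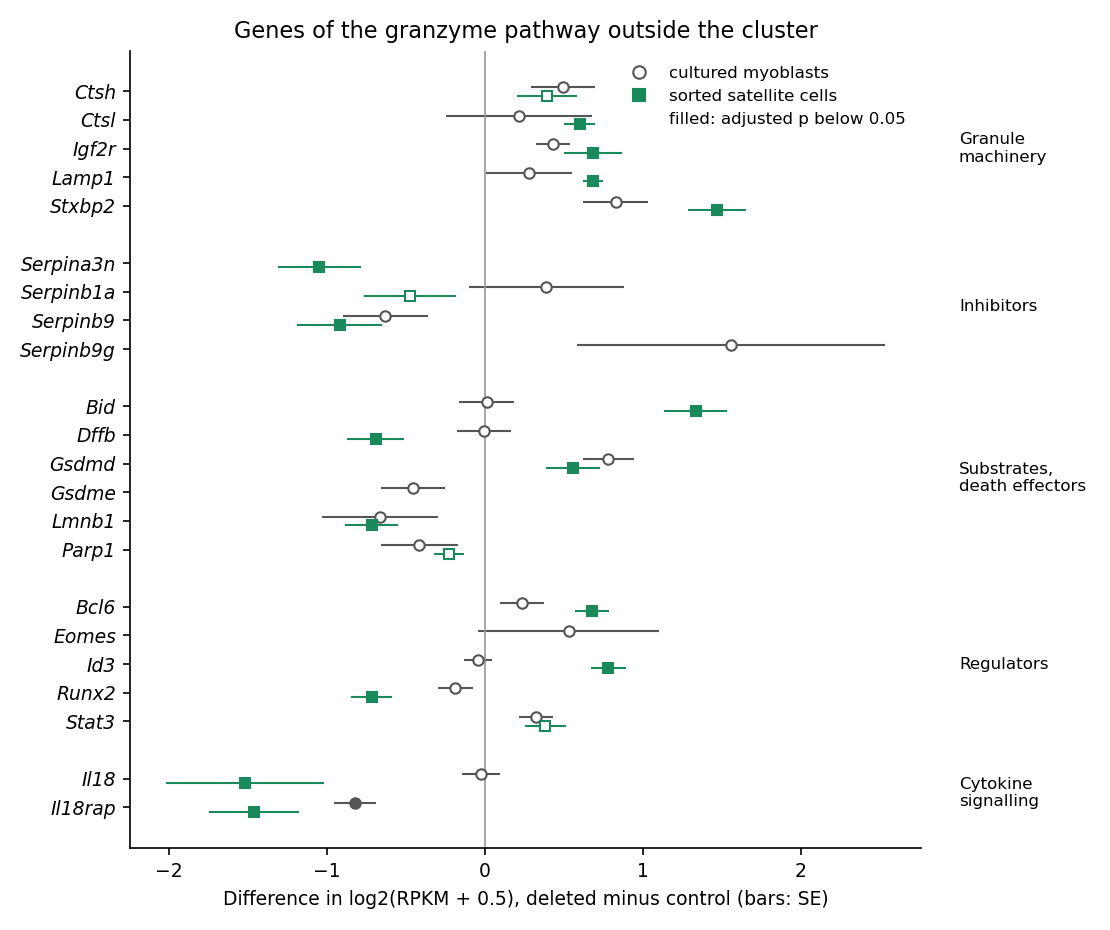
Difference in log2(RPKM + 0.5), Chd4-deleted minus control, with SE (x axis) for named genes of the granzyme pathway outside the cluster, in cultures (grey circles) and sorted cells (green squares); filled symbols have a limma adjusted p below 0.05 without the replicate block. Il18rap lies left of 0 in both settings (-0.82 and -1.46) and Stxbp2 right of 0 (0.83 and 1.47).

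Other trypsin-like serine proteases of the cell surface and matrix passed in culture only in the fit with the block. Of 14 genes 7 were tested and 0 passed by limma (3 at an unadjusted p under 0.05), and with the block 5 rose and 0 fell (17.5% and 18.7% of all tested genes), among them Htra3 (7.71 ± 1.81 to 16.0 ± 3.09 RPKM, log2 difference 1.01, limma adjusted p = 0.0636, with the block 0.000349), Prss12 (0.88), Htra1 (0.70) and St14 (0.51). In vivo Htra1 rose (0.83, SE 0.10, limma adjusted p = 0.00075) and Htra3 fell (-1.15, SE 0.21, adjusted p = 0.00419), 2 calls among 6 tested, against 26.6% of all tested genes. Markers of the muscle lineage also differed. In culture with the block 4 of 9 satellite cell and myoblast markers fell, Cd34 (-1.02), Myf5 (-0.54), Met (-0.42) and Vcam1 (-0.29), and 6 of 6 tested myocyte markers rose, among them Myog (0.46), Mymk (0.40), Mymx (0.38) and Acta1 (0.33). Without the block 0 of these passed by limma (2 and 0 at an unadjusted p under 0.05), and with it 17.5% of all tested genes rose and 18.7% fell. In vivo 3 of 9 rose, Myod1 (1.00), Des (1.00) and Itga7, and Pax7 (-0.85) and Met (-0.89) fell, while Tnnc2 (3.36), Acta1 (1.79), Mymk (1.52) and Ckm (1.31) rose among 5 of 7 myocyte markers. In vivo 14.7% of all tested genes rose and 11.9% fell. The Pax7 call was lost in 4 of 8 omissions of 1 library and that of Ckm in 6. Their part in the granzyme values was not tested.

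Over the 8 culture libraries Gzmd and Gzme were alike, with Pearson r = 0.974 in log2(RPKM + 0.5). Outside the cluster the 5 tested genes most like Gzme were Lclat1 (r = 0.990), Kcnk2, Blvra, Rp9 and 3110009E18Rik, and the 5 most like Gzmd included Blvra (0.990), Arsb, Toe1 and Ints12. Each of these had a lower mean in AdCRE. Blvra, encoding biliverdin reductase A, was in both lists and went from 7.59 ± 0.715 to 4.31 ± 0.578 RPKM. The libraries share 2 arms and 4 replicate numbers, and the values are a description. The pair was chosen as lower in AdCRE, which by itself raises their r, and close copies can share reads.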

How the data were processed

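The authors deposited 1 table of RPKM values per setting (cultured or sorted cells), per the file headers. Per the submitters' processing notes the tools named for the series include FastQC 0.11.8, cutadapt 1.18 and HISAT2 2.1.0, with no role or order. The sources used here name no counting program or gene lengths. Members and gene lists were chosen with earlier results of these data known.

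Each table was fitted alone with limma 3.58.1 (R 4.3.3) on log2(RPKM + 0.5), with a variance trend, for genes of at least 0.5 RPKM in at least 4 of 8 libraries, and Benjamini-Hochberg adjustment over all genes tested (threshold 0.05). A fold on this scale understates the change of low genes. The script was tested on simulated data. In culture the deviations of libraries with the same number correlated at 0.711 to 0.856, so the numbers pair them, and for the cultures blocked values are given where they change a call. In vivo the correlations were -0.0967 to 0.0499, so the numbers do not pair the libraries.

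Culture values of 16892 of 16923 searched genes (99.8%) were whole multiples of 1 read within 0.01. The deepest library had 1.64 times the reads of the shallowest. In vivo values have 2 decimals, and the depth is unknown. Genes were named by rule: all members, the other granzymes, the proteases of the locus, 3 neighbours on each side, and up to 4 called genes per list. Alternatives were other pseudocounts, filters, scalings, the block and each library left out. The omissions were fitted without the block, so in culture they ignore the pairing by replicate number. A few genes of the lists are counted but not reported here by name.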

Additional observations from a re-analysis of the deposited data

Results flagged for a closer look

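The 7 members, the other granzymes, the genes of the locus and its flanks, and the called list genes named by rule, 64 genes in all, were checked in groups of 4 for a library that stood far from the other 3. Of 217 groups 33 had one, where chance flags about 1 in 20, and many of these are groups with 3 libraries at 0. Among the granzymes of the cluster, these were AdGFP replicate 1 for Gzmg (0.0425 RPKM, others 0), AdGFP replicate 3 for Gzmf (0.0866, others 0) and AdCRE replicate 1 for Gzmb (0.214, others 0.0232 to 0.0276). Elsewhere at the locus in culture, AdGFP replicate 3 was apart for Cma2 (0.0414), AdCRE replicate 4 for Cma2 (0.0347), replicate 1 for Mcpt2 in AdGFP (0.119) and AdCRE (0.278), and AdGFP replicate 4 for Mcpt4 (0) and Rnf17 (0.010). AdCRE replicate 4 was apart for Khnyn (7.77, others at most 5.13). Gzmk stood apart in AdGFP replicate 3 (0.0283) and in Chd4dPax7ER replicate 3 (0.11).

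Replicate 1 was the far library in both culture arms for Serpinb9g (3.88 in AdGFP and 19.3 in AdCRE) and Prss12 (3.52 and 6.59), and in AdGFP for Eomes (1.88) and Serpina3n (0.243). In AdCRE it was far for Stxbp2 (13.0) and Runx2 (9.80). Replicate 4 was far in both arms for Myf5 (30.4 and 21.1).

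In vivo, Chd4dPax7ER replicate 2 was apart for Met (28.1), Mymk (317.8), Mymx (42.7) and Acta1 (852.4), replicate 1 for Mcpt8 (0.180) and Il18rap (2.04), and replicate 3 for Myf5 (30.9). Control replicate 4 was apart for Cma1 (0.140), Cbln3 (0.0300), Eomes (0.0400) and Gata2 (1.88).

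Htra3, a secreted serine protease, was higher in every AdCRE library than in every AdGFP library (log2 difference 1.01) and lower in every Chd4dPax7ER library than in every control (-1.15). The difference between settings, -2.16, was not tested.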

How the results depend on the processing

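Genes called in culture numbered 89, and 4907 with the replicate block. With 1 library left out, and without the block, they numbered 16 to 44. List members called in culture numbered 1, and 34 with the block, 0 without the filter, 0 under TPM scaling and 0 to 1 with 1 library left out. Mcpt8 in culture kept its difference of -0.58 with the block and then passed. The Gzmd and Gzme differences in culture moved by less than 1 SD under every alternative run, with -2.31 to -1.97 and -1.41 to -1.17 over the omissions. A pseudocount of 0.1 gave -0.54 for Gzmc and 0.28 for Gzmb in culture, and -1.79 for Gzmb and -1.05 for Gzme in vivo. With 1 library left out, Gzmb in culture ranged from -0.021, the 1 change of sign (without AdCRE replicate 1), to 0.13. In these unblocked omissions Mymx ranged from -0.012 to 0.76 and Acta1 from -0.11 to 0.75 in culture. Both changed sign without AdGFP replicate 1, which leaves its numbered partner unpaired. With the block and all libraries the differences were 0.38 (SE 0.093) and 0.33 (SE 0.095). In vivo the counts of all genes and of list members called stayed within 1.5 times under all alternatives run (2597 to 3182 and 21 to 29 with 1 library left out), and no granzyme of the cluster was called, none being tested except without the filter. The in vivo replicate block left 2878 genes called, against 3548 without it, and among named genes it moved Serpinb9 above the threshold (adjusted p = 0.0682) and Stat3 below it (adjusted p = 0.0193). Mcpt8 in vivo could not be fitted with a filter of 1 RPKM. Depth limits Gzmb, Gzmc, Gzmf, Gzmg and Gzmn in culture, and the depth in vivo is unknown.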
